A study of Mus musculus with 11 samples.

Results

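The 35 genes described here encode factors that build ribosomes in the nucleolus. They comprise 4 genes of RNA polymerase I transcription, 5 of the small nucleolar ribonucleoproteins (snoRNPs), 11 of the small subunit processome and the particles that follow it, 11 of large subunit assembly and 4 abundant nucleolar proteins of several functions. They were chosen by gene name, as known factors of rRNA processing and RNA polymerase I. All 35 were found among the 42375 named genes of the count table, and all 35 were among the 15024 genes tested.

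Ribosome production begins when RNA polymerase I copies the rDNA repeats into a long precursor. SnoRNPs modify the precursor and help to fold it, while large assemblies cut out the spacers and build the ribosomal proteins onto the small and the large subunit. The pathway consumes much of a growing cell's transcription, and in many cell types its genes are activated by the transcription factor MYC.

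The RNA came from C57BL/6 mouse bone marrow derived macrophages, which are bone marrow cells grown into macrophages in culture. The cells were in an M1 (classically activated) or an M0 (unstimulated) state and had received 1 of 2 gapmers for 16 hours. Gapmers are synthetic antisense oligonucleotides that recruit a nuclease to the RNA they bind. The KD gapmer targets the long noncoding RNA MERRICAL, and the other is labelled NS. The 11 libraries formed the groups M1 KD (2 libraries, numbered 5 and 6), M1 NS, M0 KD and M0 NS (3 libraries each, numbered 1, 2 and 4). What a number marks is not stated, and M1 KD shares no number with another group. In every comparison with M1 KD, an effect of gapmer or state thus cannot be told apart from a difference that goes with the numbers. The sources used here do not give the stimulus that made cells M1. No gene in the count table is named MERRICAL, so its level was not analysed here. Nothing states that libraries of a group came from separate cultures or mice, so the p-values cover only the spread from library to library, which may be technical.

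Total counts per library ran from 30040632 to 43250392. Levels are given as CPM, counts scaled with TMM factors to a common library total. The summed CPM of 9 macrophage markers (Csf1r, Lyz2, Cd68 and others, none at 0 in any library) was 15028 to 18156 in M1 KD, 13843 to 16026 in M1 NS, 19456 to 21274 in M0 KD and 25831 to 27195 in M0 NS. Lyz2 held much of this sum, with a mean of 5639 CPM in M1 NS and 17460 CPM in M0 NS. Of the 9 markers, 5 were called higher in M1 NS than in M0 NS and 3 lower, with a median log2 fold change of 0.67. The 6 markers of M1 activation summed to 13109 to 13690 CPM in M1 KD and 8769 to 10656 CPM in M1 NS, against 140.2 to 257 CPM in all 6 M0 libraries. Single M1 markers moved both ways between M1 KD and M1 NS. Nos2, Cxcl10 and Irf1 had higher means in M1 KD, whereas Il12b, Il6 and Tnf had lower ones. Of these 6 markers 1 was called higher in M1 KD than in M1 NS and 2 lower, with a median log2 fold change of -0.18. T cell markers summed to at most 0.694 CPM and B cell markers to at most 0.695 CPM in any library. Markers of fibroblasts, dendritic, erythroid and mast cells summed to at most 25.3 CPM each. The 11 neutrophil markers summed to 199 to 208 CPM in M1 KD and 236 to 308 CPM in M1 NS, and to 667 to 714 CPM in M0 KD and 1245 to 2205 CPM in M0 NS. The 15 cell cycle genes summed to 974 to 1212 CPM in M0 KD and 675 to 877 CPM in M0 NS, whereas M1 KD (500.1 to 534 CPM) lay within the range of M1 NS (350.3 to 555 CPM). Taken gene by gene, 8 of the 15 cell cycle genes were called higher in M1 KD than in M1 NS and none lower, with a median log2 fold change of 0.92. What these differences contribute to the values below was not tested. In bulk RNA, fewer cells of a type and less RNA per cell cannot be told apart.

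The E-box CACGTG, the site bound by MYC and by other proteins of the same class, is shown first because it is the element through which MYC is known to activate ribosome genes. RefSeq promoters (build GRCm38.p6, 250 bases before to 50 after the start site) were at hand for 30 of the 35 genes. The 6 letters read the same on both strands. They occurred in 7 of the 30 genes (23.3%), against 11.3% of the 9859 tested protein-coding genes with a promoter and 8.91% of the 17491 protein-coding genes with one. The match lay before the start site in 3 genes and after it in 4 (Mybbp1a, Utp20, Wdr43 and Pes1). The 4 stretches before the start site follow, 5′ to 3′ on the gene's strand, with the E-box in capitals. They lie at chr16:13780454-13780519 and chr16:13780621-13780686 (Rrn3, plus strand), chr11:93885767-93885816 (Utp18, minus strand) and chr6:125131793-125131858 (Nop2, plus strand).
Rrn3, E-box 215 bases before the start: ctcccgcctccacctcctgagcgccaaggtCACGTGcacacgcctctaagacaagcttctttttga
Rrn3, E-box 48 bases before the start: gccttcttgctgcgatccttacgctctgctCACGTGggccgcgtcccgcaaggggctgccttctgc
Utp18, E-box 20 bases before the start: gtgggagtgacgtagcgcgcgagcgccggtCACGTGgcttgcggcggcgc
Nop2, E-box 60 bases before the start: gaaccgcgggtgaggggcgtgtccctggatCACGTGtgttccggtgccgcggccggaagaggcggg
Among these 3 genes, Rrn3 and Nop2 were lower in M1 KD than in M1 NS, while Utp18 did not pass the test, as the values below show. Of the 4 genes with the match after the start site, Mybbp1a, Utp20 and Pes1 were called lower and Wdr43 was not. Among all 35 genes 19 were called lower, and among all genes tested 19.2%. Whether the E-box bears on these calls was not tested. An ETS-type motif (CCGGAAG, either strand) occurred in 26.7% of the 30 genes and 19.4% of the tested genes, and a GC box (GGGCGG, either strand) in 76.7% and 66.8%. A match describes the letters in this window and says nothing of a factor bound there.

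Of the 35 genes, 19 fell in M1 macrophages that had received the MERRICAL gapmer, where 19.2% of all genes tested were called lower. Members of all 5 roles were among the 19. The 35 genes summed to 1299 to 1371 CPM in M1 KD, 1729 to 1790 CPM in M1 NS, 1523 to 1696 CPM in M0 KD and 1359.9 to 1475 CPM in M0 NS. With TMM scaling the M1 KD libraries thus lay below all M1 NS libraries, and the M1 NS libraries were the highest of the 4 groups. As an unscaled share of a library's counts, the 35 genes held 0.107 to 0.115% in M1 KD and 0.144 to 0.158% in M1 NS. That share was 0.177 to 0.202% in M0 KD and 0.149 to 0.171% in M0 NS. By share M1 KD was again lowest, but M0 KD was highest and M1 NS overlapped M0 NS. Without Ncl and Npm1, which held much of the sum, the other genes summed to 835 to 846 CPM in M1 KD, 1224 to 1371 CPM in M1 NS, 966 to 1044 CPM in M0 KD and 884 to 987 CPM in M0 NS. By CPM with TMM scaling, M1 NS had the highest group mean for 24 of the 35 genes, and M1 KD the lowest for 20. The same count over all genes tested was not made.

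**Figure D1:**
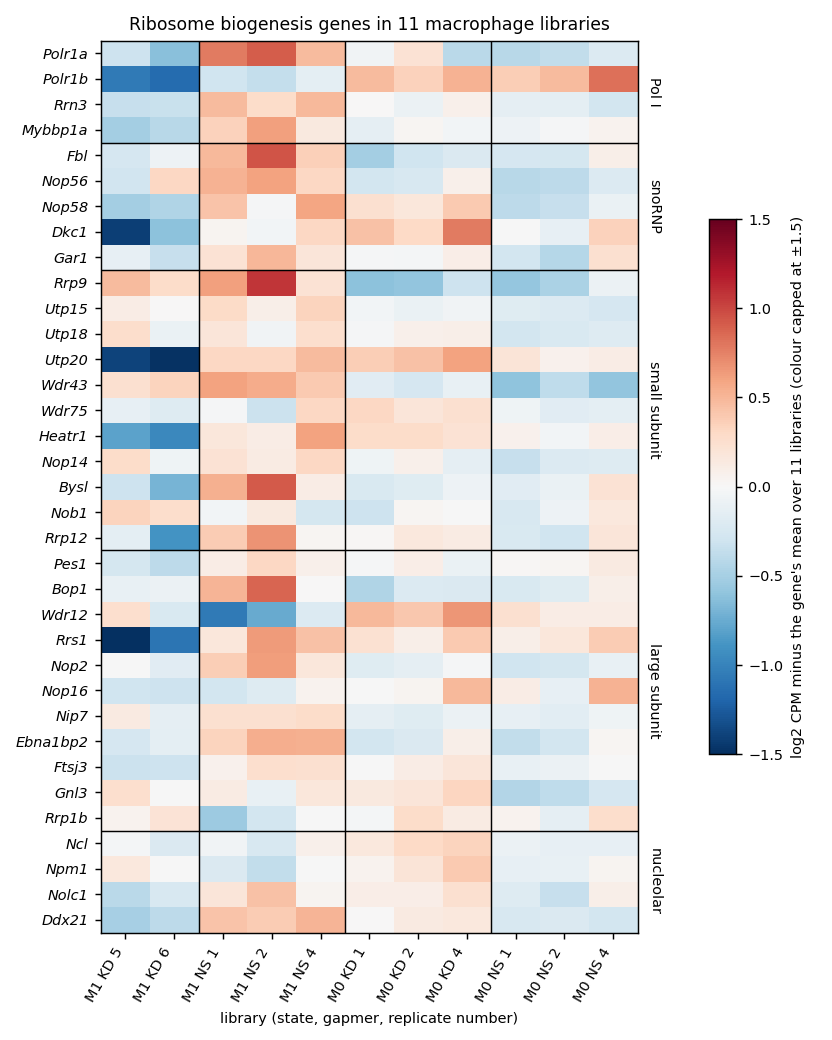
Level of each of the 35 genes (rows, grouped by role) in each of the 11 libraries (columns, labelled with state, gapmer and replicate number), as log2 CPM minus the gene's mean over all libraries, with the colour capped at 1.5 either way. Blue cells dominate the M1 KD columns, most deeply for Utp20, Rrs1, Dkc1 and Polr1b, while red cells dominate the M1 NS columns. With TMM scaling M1 NS has the highest mean for 24 genes, a count not made over all genes tested.

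In M1 KD against M1 NS, 19 of the 35 genes were called lower and 1 higher at an adjusted p under 0.05 (edgeR quasi-likelihood test over all genes). The background was 36.8% of all 15024 genes called, 19.2% lower and 17.6% higher. The split over all genes was 2890 lower and 2645 higher, and became 2177 lower and 3454 higher with upper-quartile scaling. The median log2 fold change of the 35 genes was -0.51, beside 0.00 for all genes tested, and 30 of the 35 values were below 0. The CPM ranges of the compared groups did not overlap for 24 genes lower and 3 higher in M1 KD, where 52.4% of all genes tested did not overlap (26.3% lower and 26.1% higher). By role, the count called lower was 4 of 4 for RNA polymerase I (median -0.84), 3 of 5 for snoRNP proteins (median -0.78), 4 of 11 for the small subunit (median -0.24), 6 of 11 for the large subunit (median -0.49) and 2 of 4 for the nucleolar proteins (median -0.30). In the same comparison 8 of the 15 cell cycle genes were higher, and their part in these values was not tested.

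**Figure D2:**
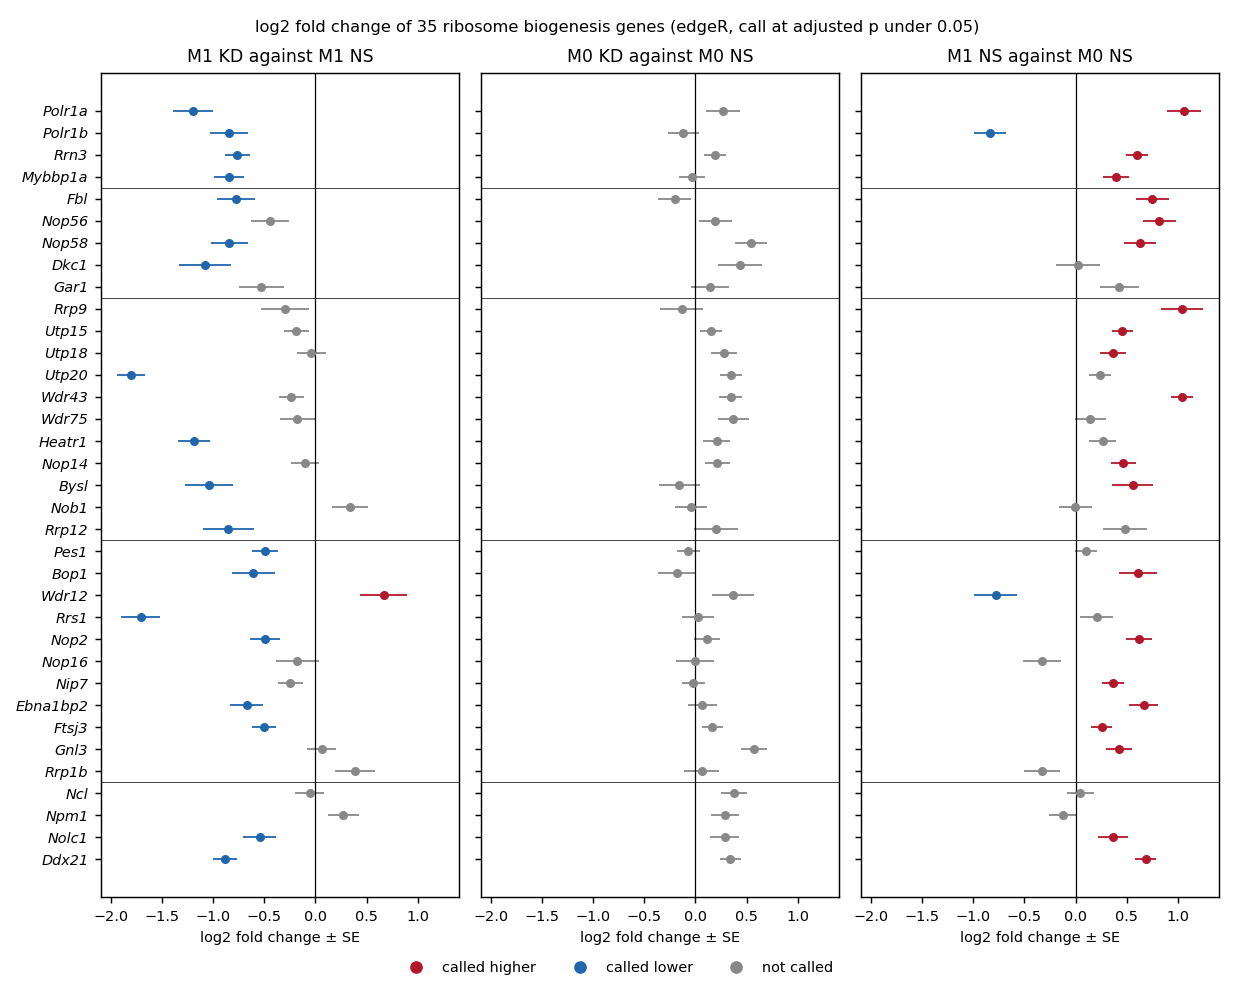
log2 fold change (points) and its standard error (bars) of the 35 genes, grouped by role, in M1 KD against M1 NS (left), M0 KD against M0 NS (middle) and M1 NS against M0 NS (right), with calls at an adjusted p under 0.05 in colour. In the left panel 19 genes are called lower and Wdr12 higher, in the middle panel none is called, and in the right panel 20 are called higher and 2 lower, where scaling by library size alone leaves 5 higher and 6 lower.

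All 4 genes of RNA polymerase I transcription fell. Polr1a, the largest and catalytic subunit of the enzyme, had 36.9 and 29.7 CPM in M1 KD libraries, against 79.0, 86.2 and 63.9 CPM in M1 NS libraries. The groups did not overlap, and the log2 fold change was -1.20 (SE 0.19, adjusted p = 0.000679). Polr1b, the second largest subunit, had 3.62 and 3.40 CPM in M1 KD libraries, against 6.13, 5.90 and 6.85 CPM in M1 NS libraries, again without overlap (log2 fold change -0.84, SE 0.18, adjusted p = 0.00407). This call was lost when the M1 groups were fitted alone (adjusted p = 0.0596). Rrn3, the initiation factor that brings the polymerase to the rDNA promoter and the gene with 2 of the E-boxes above, had 24.1 and 24.4 CPM in M1 KD and 42.8, 37.4 and 43.2 CPM in M1 NS libraries. Its log2 fold change was -0.76 (SE 0.12, adjusted p = 0.000602), with close agreement inside each group. Mybbp1a, a nucleolar protein that binds the polymerase and takes part in rRNA processing, averaged 77.6 ± 3.43 CPM in M1 KD (SD, n = 2) and 139 ± 23.2 CPM in M1 NS (SD, n = 3), a log2 change of -0.85 (SE 0.15, adjusted p = 0.00107).

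In M0 macrophages the same 4 genes did not pass the test. Polr1a had 44.2, 53.5 and 34.7 CPM in M0 KD libraries, against 34.4, 35.4 and 39.9 CPM in M0 NS libraries, so the ranges overlapped. Polr1b had 10.5, 9.64 and 10.8 CPM in M0 KD and 9.78, 10.6 and 13.4 CPM in M0 NS, above every M1 library. Rrn3 had 31.0, 28.9 and 32.6 CPM in M0 KD, against 28.0, 27.7 and 25.5 CPM in M0 NS. Rrn3 thus kept apart in M0 as well, in the opposite direction (log2 fold change 0.19, SE 0.11, adjusted p = 0.448).

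Box C/D snoRNPs methylate rRNA and box H/ACA snoRNPs convert uridine to pseudouridine. Dkc1, the pseudouridine synthase of the H/ACA class, had 3.40 and 5.92 CPM in M1 KD libraries, against 9.33, 8.79 and 11.2 CPM in M1 NS libraries. M1 KD was lower in both libraries (log2 fold change -1.08, SE 0.26, adjusted p = 0.00664), and the call was lost without M1 KD replicate 5 (adjusted p = 0.0758). Nop58, a core protein of the C/D class, had 15.3 and 15.9 CPM in M1 KD and 29.4, 21.6 and 32.8 CPM in M1 NS (log2 fold change -0.84, SE 0.18, adjusted p = 0.00345). Fbl, the methyltransferase fibrillarin, had 48.1 and 54.5 CPM in M1 KD, against 80.3, 110.4 and 73.2 CPM in M1 NS. Its log2 fold change was -0.78 (SE 0.19, adjusted p = 0.00689), and without M1 KD replicate 5 the adjusted p was 0.0637. The partner of Nop58, Nop56, did not pass the test: it had 30.4 and 45.9 CPM in M1 KD and 53.3, 56.4 and 46.0 CPM in M1 NS (log2 fold change -0.44, SE 0.18, adjusted p = 0.0743). Gar1, an H/ACA core protein, was also below the threshold of a call (log2 fold change -0.53, SE 0.22, adjusted p = 0.0751).

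In M0 the snoRNP genes showed other values. Dkc1 had 12.3, 11.1 and 15.6 CPM in M0 KD, against 9.03, 8.31 and 11.5 CPM in M0 NS, and Nop58 had 25.7, 24.5 and 28.6 CPM in M0 KD, against 16.7, 17.1 and 20.4 CPM in M0 NS. Nop58 did not overlap between the M0 groups and was higher in M0 KD (log2 fold change 0.54, SE 0.16, unadjusted p = 0.00446, adjusted p = 0.261). Fbl had 40.3, 46.5 and 49.3 CPM in M0 KD and 48.0, 47.8 and 60.8 CPM in M0 NS, and Nop56 had 30.6, 31.5 and 39.0 CPM in M0 KD and 27.7, 28.4 and 32.3 CPM in M0 NS. Both overlapped between the M0 groups.

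The small subunit processome is the assembly that forms on the nascent precursor and makes the first cuts. Utp20, one of its large repeat proteins, had 9.17 and 8.63 CPM in M1 KD libraries, against 29.8, 29.8 and 33.6 CPM in M1 NS libraries. This was the largest fall among the 35 genes, at a log2 change of -1.80 (SE 0.13, adjusted p = 5.83e-06), or 0.287 of the M1 NS level. Utp20 (GENCODE M21, build GRCm38, chr10:88746607-88826804, minus strand) has 62 exons in its longest annotated transcript. Its M0 levels were 31.1, 32.8 and 36.6 CPM in M0 KD and 27.6, 25.2 and 26.1 CPM in M0 NS, so M1 KD stood apart from all 9 other libraries. Heatr1, a processome protein also needed for RNA polymerase I transcription, had 22.7 and 20.3 CPM in M1 KD, against 44.5, 42.6 and 60.2 CPM in M1 NS (log2 fold change -1.19, SE 0.16, adjusted p = 0.000167). Heatr1 likewise lay below all M0 libraries, which had 47.8, 47.9 and 45.8 CPM in M0 KD and 41.4, 38.5 and 42.6 CPM in M0 NS.

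The other 2 small subunit genes called lower act later, in maturing and exporting the particle. Bysl averaged 7.81 ± 1.48 CPM in M1 KD (SD, n = 2) and 16.2 ± 4.48 CPM in M1 NS (SD, n = 3), a log2 change of -1.04 (SE 0.23, adjusted p = 0.00453). Rrp12 averaged 8.999 ± 3.26 CPM in M1 KD (SD, n = 2) and 16.3 ± 3.57 CPM in M1 NS (SD, n = 3), a log2 change of -0.85 (SE 0.25, adjusted p = 0.0183). The Rrp12 call was lost without M1 NS replicate 2, without M1 KD replicate 6 and with the M1 groups alone. The 7 other small subunit genes did not pass the test. Of these, Rrp9, Utp15, Utp18, Wdr43, Wdr75 and Nop14 had log2 fold changes between -0.30 and -0.04. Wdr43, a subunit of the early processome, had 52.2 and 55.7 CPM in M1 KD and 67.5, 65.2 and 58.0 CPM in M1 NS (log2 fold change -0.24, SE 0.12, adjusted p = 0.151). Nob1, the nuclease that trims the end of the small subunit rRNA in the cytoplasm, had 15.1 and 14.4 CPM in M1 KD and 11.7, 13.3 and 10.01 CPM in M1 NS. It stood higher in M1 KD without overlap, but did not pass the test (log2 fold change 0.34, SE 0.18, adjusted p = 0.148). In M0, Nob1 had 9.67, 12.3 and 11.98 CPM in M0 KD and 10.2, 11.4 and 13.4 CPM in M0 NS.

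**Figure D3:**
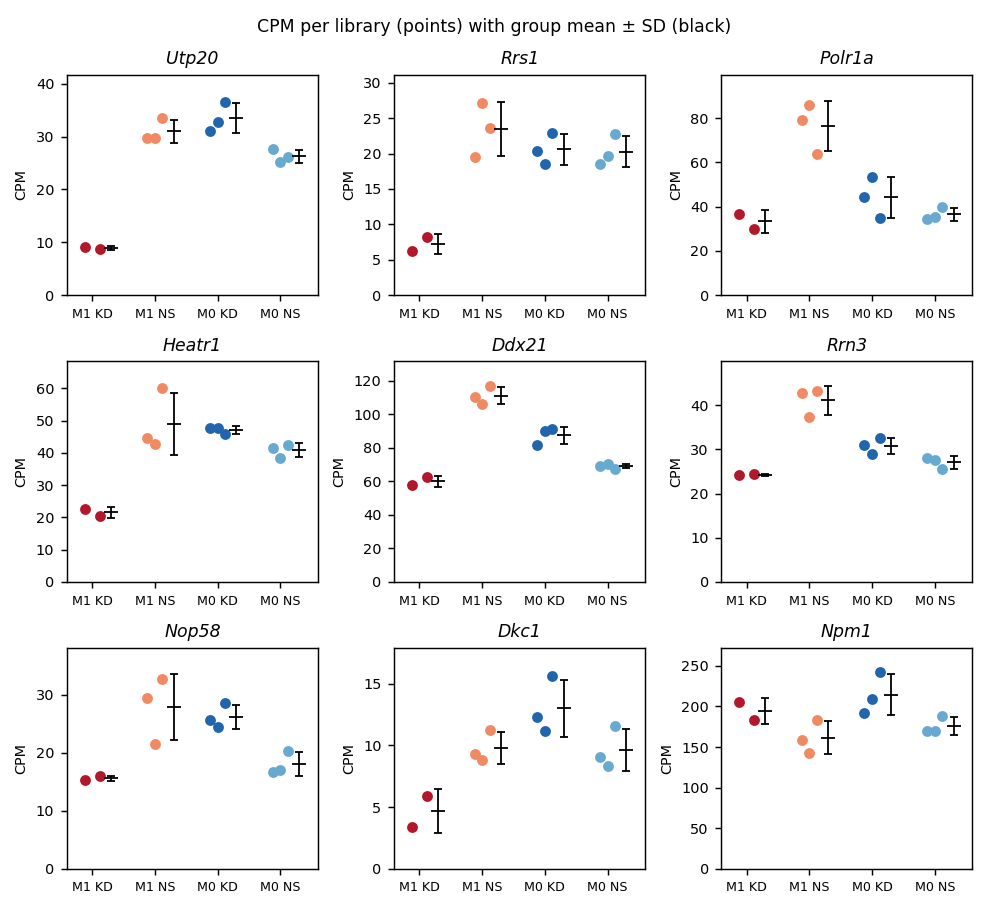
CPM in each library (points) with the group mean ± SD (black) for 9 of the genes, with groups in the order M1 KD, M1 NS, M0 KD and M0 NS. Utp20, Rrs1 and Heatr1 are low in M1 KD alone, Polr1a, Rrn3 and Ddx21 are highest in M1 NS, and Npm1 was called in neither M1 KD against M1 NS nor M0 KD against M0 NS.

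Among large subunit factors, Rrs1, a gene of 1 exon (chr1:9545408-9547455, plus strand), fell the most. Rrs1, which helps to load the small accessory rRNA of the large subunit, had 6.17 and 8.19 CPM in M1 KD libraries, against 19.6, 27.2 and 23.6 CPM in M1 NS libraries (log2 fold change -1.71, SE 0.19, adjusted p = 6.52e-05). In M0, Rrs1 had 20.4, 18.5 and 22.9 CPM in M0 KD and 18.5, 19.6 and 22.8 CPM in M0 NS, so all 9 other libraries lay above M1 KD. Ftsj3, an rRNA methyltransferase of the large subunit precursor, had 33.5 and 34.0 CPM in M1 KD, against 43.9, 50.04 and 49.8 CPM in M1 NS (log2 fold change -0.51, SE 0.12, adjusted p = 0.00548). Its M0 levels were 42.0, 45.4 and 47.5 CPM in M0 KD and 38.8, 39.5 and 41.9 CPM in M0 NS, and its M1 call was lost with the M1 groups alone (adjusted p = 0.0826). Nop2, another methyltransferase and a carrier of the E-box shown above, had 30.6 and 27.4 CPM in M1 KD, against 39.8, 47.5 and 34.7 CPM in M1 NS. Its log2 fold change was -0.49 (SE 0.15, adjusted p = 0.0212), and the call was lost with upper-quartile scaling, without M1 KD replicate 6 and with the M1 groups alone (highest adjusted p = 0.127). In M0, Nop2 had 27.2, 28.0 and 30.4 CPM in M0 KD and 25.1, 25.7 and 28.5 CPM in M0 NS.

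Pes1, Bop1 and Wdr12 encode the PeBoW complex, which acts together in large subunit rRNA processing, and their RNAs moved apart. Pes1 averaged 64.7 ± 4.19 CPM in M1 KD (SD, n = 2) and 91.2 ± 8.07 CPM in M1 NS (SD, n = 3), and Bop1 averaged 35.7 ± 0.343 CPM in M1 KD (SD, n = 2) and 54.4 ± 15.9 CPM in M1 NS (SD, n = 3). Both were called lower (log2 fold change -0.49, SE 0.13, adjusted p = 0.00899 for Pes1 and -0.61, SE 0.21, adjusted p = 0.0394 for Bop1). Wdr12 had 11.96 and 8.56 CPM in M1 KD, against 4.79, 5.94 and 8.69 CPM in M1 NS, and was the 1 gene of the 35 called higher (log2 fold change 0.67, SE 0.23, adjusted p = 0.0396). Its ranges overlapped, however. The Wdr12 call was lost in 10 of 22 alternatives, among them the fits without M1 KD replicate 5 and without M1 NS replicate 1 or 2. The Bop1 call was lost in 14 of 22, among them the fits without either M1 KD library and without M1 NS replicate 1 or 2. The Pes1 call was lost with upper-quartile scaling, without M1 KD replicate 6 and with the M1 groups alone (highest adjusted p = 0.0942). The M0 levels of Wdr12 were 14.0, 13.2 and 15.9 CPM in M0 KD and 11.8, 10.8 and 10.8 CPM in M0 NS. Ebna1bp2, a large subunit scaffold protein, was lower in M1 KD at 26.6 ± 1.48 CPM (SD, n = 2), against 42.3 ± 3.41 CPM in M1 NS (SD, n = 3; log2 fold change -0.67, SE 0.16, adjusted p = 0.0067), a call lost without M1 KD replicate 5 (adjusted p = 0.0545). Nop16, Nip7, Gnl3 and Rrp1b did not pass the test, with log2 fold changes between -0.24 and 0.39.

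The abundant nucleolar proteins divided as well. Ddx21, an RNA helicase of the nucleolus, had 57.9 and 62.5 CPM in M1 KD, against 110.4, 106 and 117 CPM in M1 NS (log2 fold change -0.89, SE 0.12, adjusted p = 0.000159). Nolc1, a chaperone of snoRNPs, had 22.2 and 24.9 CPM in M1 KD, against 33.3, 39.6 and 30.1 CPM in M1 NS (log2 fold change -0.55, SE 0.16, adjusted p = 0.02). Neither overlapped. The Nolc1 call was lost with upper-quartile scaling, without M1 KD replicate 5 and with the M1 groups alone. Nucleolin (Ncl) and nucleophosmin (Npm1), which bind rRNA and chaperone assembly, did not pass the test. Ncl averaged 300.03 ± 26.6 CPM in M1 KD (SD, n = 2) and 312 ± 33.5 CPM in M1 NS (SD, n = 3), and Npm1 averaged 195 ± 16.1 CPM in M1 KD (SD, n = 2) and 161 ± 20.4 CPM in M1 NS (SD, n = 3). Npm1 has many processed copies in the mouse genome, and the sources used here do not say how reads shared with them were counted, so its values are uncertain. In M0, Ddx21 had 81.9, 89.8 and 91.2 CPM in M0 KD and 69.3, 70.5 and 67.7 CPM in M0 NS, and Nolc1 had 31.4, 31.3 and 34.6 CPM in M0 KD and 25.6, 23.1 and 31.3 CPM in M0 NS. Ddx21 did not overlap between the M0 groups.

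The MERRICAL gapmer gave no call in M0. Of the 15024 genes, 0% were called in M0 KD against M0 NS by edgeR (lowest adjusted p = 0.19), with 1947 genes at an unadjusted p under 0.05, while DESeq2 called 221 genes and a fit of the M0 groups alone 1091. Among the 35 genes none was called by the edgeR fit of all libraries, and 7 had an unadjusted p under 0.05. The values nevertheless leaned upward: the median log2 fold change was 0.19, beside 0.00 for all genes, and 25 of the 35 values were above 0. For 16 genes the M0 KD libraries all lay above the M0 NS libraries and for none all below, where 35.1% of all genes did not overlap (17.2% higher and 17.9% lower). The largest value was that of Gnl3, the GTPase nucleostemin, which had 23.9, 24.3 and 26.8 CPM in M0 KD, against 15.9, 16.5 and 18.0 CPM in M0 NS (log2 fold change 0.57, SE 0.12, unadjusted p = 0.000579, adjusted p = 0.222). In M1, Gnl3 had 25.5 and 21.5 CPM in M1 KD and 23.4, 19.95 and 24.2 CPM in M1 NS. Ncl averaged 393 ± 24.2 CPM in M0 KD and 302 ± 4.29 CPM in M0 NS (SD, n = 3 each; adjusted p = 0.298). DESeq2 called 3 of the 35 genes higher (Gnl3, Ncl and Ddx21), and the fit of the M0 groups alone called 6 (these 3 with Nop58, Utp20 and Wdr75). All 15 cell cycle genes had a value above 0 in this comparison (median 0.51, none called); their part in the leaning of the 35 genes was not tested.

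The log2 fold changes of KD against NS in the M1 and M0 states were then compared directly, as the M1 value minus the M0 one. The numbers of the M1 KD libraries, shared with no other group, enter this difference as well. This difference was called for 17 of the 35 genes, all lower, where 27.3% of all genes were called (14.2% lower and 13.1% higher). Over all genes 2130 were lower and 1965 higher, a split of 1705 lower and 2474 higher with upper-quartile scaling. The median difference of the 35 genes was -0.60, beside -0.02 for all genes, and 32 of the 35 values were below 0. Of the 17, 16 were also called lower within M1. The largest differences were those of Utp20 (-2.15, SE 0.17, adjusted p = 3.67e-05), Rrs1 (-1.73, SE 0.25, adjusted p = 0.00059), Dkc1 (-1.51, SE 0.33, adjusted p = 0.00662), Polr1a (-1.47, SE 0.26, adjusted p = 0.00182), Heatr1 (-1.40, SE 0.20, adjusted p = 0.00066) and Nop58 (-1.38, SE 0.24, adjusted p = 0.00169). Nob1 was at the other end, with a difference of 0.38 (SE 0.24, adjusted p = 0.251). Wdr43 was called in the difference (-0.58, SE 0.17, adjusted p = 0.0221) without a call in M1 or in M0: it had 39.4, 37.1 and 41.0 CPM in M0 KD, against 29.1, 34.1 and 29.4 CPM in M0 NS. The call was kept under all 21 alternatives by 9 of the 17 genes (Polr1a, Rrn3, Mybbp1a, Nop58, Dkc1, Utp20, Heatr1, Rrs1 and Ddx21).

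Between the states under the NS gapmer, more of the 35 genes were higher than lower in M1, a balance that scaling by library size alone removed. In M1 NS against M0 NS, 20 of the 35 genes were called higher and 2 lower, where 55.5% of all genes were called (26.9% higher and 28.6% lower). The median log2 fold change was 0.39, beside -0.04 for all genes, but with scaling by library size alone it was 0.00, beside -0.42 for all genes, and 5 genes were called higher and 6 lower. With that scaling the calls over all genes were 2348 higher and 6447 lower, in place of 4044 and 4294. The CPM ranges did not overlap for 19 genes higher and 2 lower (61.4% of all genes did not overlap, 28.6% higher and 32.8% lower). Calls of 7 genes held under all 23 alternatives: Polr1a, Nop56, Rrp9, Wdr43 and Ddx21 were higher, and Polr1b and Wdr12 were lower.

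Polr1a and Polr1b, subunits of the same enzyme, moved in opposite directions between the states. Polr1a averaged 76.3 ± 11.4 CPM in M1 NS and 36.6 ± 2.90 CPM in M0 NS (SD, n = 3 each; log2 change 1.06, SE 0.17, adjusted p = 0.000189), whereas Polr1b averaged 6.30 ± 0.496 CPM in M1 NS and 11.2 ± 1.91 CPM in M0 NS (SD, n = 3 each; -0.84, SE 0.16, adjusted p = 0.000644). Wdr43 had the smallest p of the set, at 63.5 ± 4.95 CPM in M1 NS and 30.9 ± 2.82 CPM in M0 NS (SD, n = 3 each; 1.04, SE 0.11, adjusted p = 7.34e-06). Rrp9, a protein of the U3 snoRNP, had 22.2, 30.4 and 16.9 CPM in M1 NS, against 9.71, 10.4 and 13.6 CPM in M0 NS (1.04, SE 0.21, adjusted p = 0.00106). Its KD levels were 20.1 and 17.6 CPM in M1 KD and 9.43, 9.62 and 11.7 CPM in M0 KD, so Rrp9 was higher in M1 than in M0 with either gapmer. Nop56 was higher as well (0.82, SE 0.16, adjusted p = 0.000998). Utp20, Heatr1, Rrs1 and Dkc1, which had some of the largest falls in M1 KD, did not pass the test between the NS groups, with log2 fold changes of 0.24, 0.27, 0.21 and 0.02.

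The comparisons within M1 and between the NS groups share the M1 NS libraries, so a high or low M1 NS library moves both. In Ddx21 M1 KD (60.2 ± 3.27 CPM; SD, n = 2) lay below M1 NS (111 ± 5.16 CPM; SD, n = 3) and also below M0 NS (69.2 ± 1.44 CPM; SD, n = 3). In Fbl, M1 KD (51.3 ± 4.54 CPM; SD, n = 2) was close to M0 NS (52.2 ± 7.42 CPM; SD, n = 3).

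The last comparison set the states against each other under the KD gapmer. In M1 KD against M0 KD, 13 of the 35 genes (37.1%) were called lower and 2 higher (Rrp9 and Wdr43), where 58.3% of all genes were called (31.4% lower and 26.9% higher). The share called lower was thus near that of all genes, and it was 8 of 35 with RLE factors or with limma-trend. The median log2 fold change was -0.33, beside -0.11 for all genes. The CPM ranges did not overlap for 19 genes lower and 5 higher, where 74.9% of all genes did not overlap (40.6% lower and 34.4% higher). The falls were led by Utp20 (-1.91, SE 0.13, adjusted p = 2.98e-07), Polr1b (-1.56, SE 0.19, adjusted p = 1.91e-05), Rrs1 (-1.53, SE 0.19, adjusted p = 2.85e-05) and Dkc1 (-1.49, SE 0.26, adjusted p = 0.000364), and the rises were those of Rrp9 (0.88, SE 0.23, adjusted p = 0.00554) and Wdr43 (0.46, SE 0.12, adjusted p = 0.00612). With scaling by library size alone 27 genes were lower and none higher, beside a median of -0.59 for all genes, with 2376 of all genes higher and 7077 lower in place of 4040 and 4715.

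Other genes of ribosome production were examined as lists of known factors that exclude the 35. Over all genes tested, 19.2% were lower and 17.6% higher in M1 KD than in M1 NS. Of 37 other small subunit genes, 16 were lower and none higher in M1 KD than in M1 NS (median -0.38). Bms1, a processome GTPase, averaged 26.9 ± 1.10 CPM in M1 KD (SD, n = 2) and 58.4 ± 4.27 CPM in M1 NS (SD, n = 3; -1.12, SE 0.11, adjusted p = 3.55e-05), and Pdcd11 averaged 16.4 ± 0.103 CPM in M1 KD (SD, n = 2) and 39.0 ± 4.74 CPM in M1 NS (SD, n = 3; -1.25, SE 0.13, adjusted p = 3.57e-05). Of 41 other large subunit genes, 19 were lower and 1 higher (median -0.39). They included Mdn1, the giant ATPase that remodels large subunit precursors (-1.27, SE 0.14, adjusted p = 5.82e-05), and Gnl3l, a relative of Gnl3 (-1.26, SE 0.15, adjusted p = 7.81e-05). Of 13 exosome genes, 4 were lower and none higher (median -0.15), among them the nuclease Dis3 (-0.99, SE 0.18, adjusted p = 0.00111) and Mphosph6 (-0.67, SE 0.17, adjusted p = 0.0103).

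The other RNA polymerase I and snoRNP genes had medians close to 0. Their calls stand beside 19.2% of all genes lower and 17.6% higher. Of 12 other RNA polymerase I genes, 1 was lower (Taf1b, -0.50, SE 0.15, adjusted p = 0.0213) and 2 were higher (median 0.06). Polr1c, a subunit shared with RNA polymerase III, was higher (0.69, SE 0.16, adjusted p = 0.00477). So was Ubtf, the rDNA binding factor (0.39, SE 0.14, adjusted p = 0.0449), which was named after its value was seen. Of 11 other snoRNP genes, 3 were lower and 1 higher (median -0.06). Nhp2l1, a box C/D core protein, was lower (-0.59, SE 0.13, adjusted p = 0.00372), and Nufip1, a snoRNP assembly factor, was higher (0.74, SE 0.13, adjusted p = 0.00122).

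Genes of the ribosomal proteins themselves were higher in M1 KD than in M1 NS, where 17.6% of all genes were called higher. Among the 79 genes of cytosolic ribosomal proteins, 63 were higher and none lower than in M1 NS, with a median of 0.74 that stayed above 0 under each scaling but was 0.47 without M1 KD replicate 5, 0.94 without M1 KD replicate 6 and 0.40 with a trend in exon number, GC content and transcript length removed. They summed to 23471 to 32089 CPM in M1 KD and 15375 to 19529.5 CPM in M1 NS. Rps24 averaged 913 ± 52.0 CPM in M1 KD (SD, n = 2) and 461 ± 37.6 CPM in M1 NS (SD, n = 3; 0.99, SE 0.14, adjusted p = 0.000302), and Rpl17 averaged 455 ± 113 CPM in M1 KD (SD, n = 2) and 210.5 ± 1.72 CPM in M1 NS (SD, n = 3; 1.11, SE 0.16, adjusted p = 0.000264). Many ribosomal protein genes have near-identical processed copies, so their values are uncertain. In M0 KD against M0 NS none was called. In M1 NS against M0 NS 18 were lower (22.8%) and 2 higher (2.53%), where 28.6% of all genes were lower and 26.9% higher. The medians were -0.21 in M0 and -0.25 between the NS groups. Without M0 NS replicate 4 these medians were -0.0784 in M0 and -0.12 between the NS groups, and the second was -0.38 without M1 NS replicate 2.

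**Figure D4:**
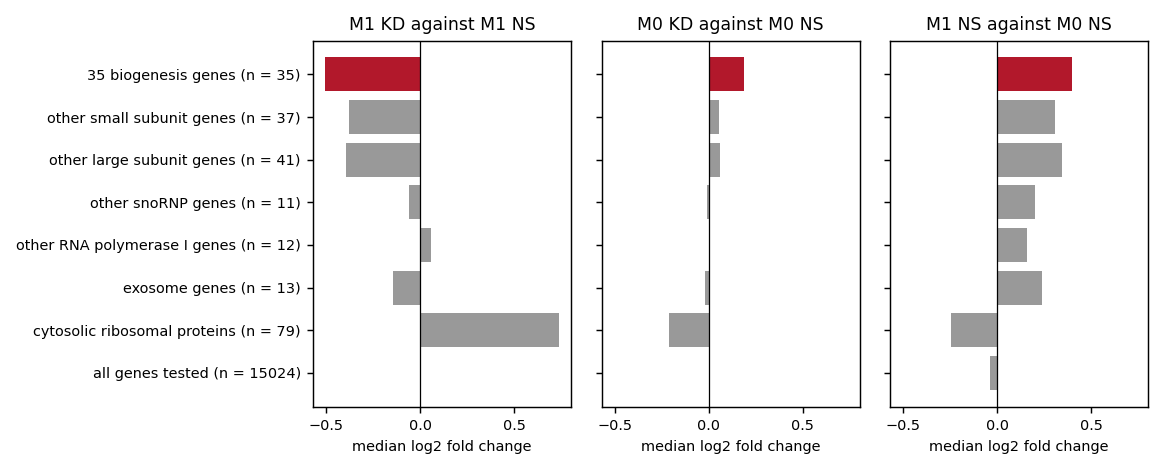
Median log2 fold change of the 35 genes (red) and of 6 lists of other ribosome genes and all genes tested (grey), with the number of genes in each list, in M1 KD against M1 NS, M0 KD against M0 NS and M1 NS against M0 NS. In the left panel the 35 genes (-0.51) and the other small (-0.38) and large subunit genes (-0.39) are below 0 and the ribosomal proteins (0.74) above it. In the right panel the 35 genes stand at 0.39 and all genes tested at -0.04. With scaling by library size alone these values become 0.00 and -0.42.

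Myc itself was lower in M1 than in M0 with either gapmer. Myc had 0.604 and 1.28 CPM in M1 KD libraries, 0.756, 1.86 and 0.803 CPM in M1 NS, 11.4, 14.1 and 16.1 CPM in M0 KD and 6.12, 6.38 and 12.04 CPM in M0 NS libraries. Each M1 library thus lay below each M0 library. The log2 fold change was -2.88 in M1 NS against M0 NS (SE 0.40, adjusted p = 6.11e-05), -3.91 in M1 KD against M0 KD (SE 0.49, adjusted p = 2.70e-05), -0.27 in M1 KD against M1 NS (SE 0.49, adjusted p = 0.697) and 0.76 in M0 KD against M0 NS (SE 0.34, adjusted p = 0.384). Of the 11 genes of the MYC network, 4 were higher and 4 lower in M1 NS than in M0 NS (median 0.33). In M1 KD against M1 NS, 4 were higher and 1 lower (median 0.38), where 17.6% of all genes were higher and 19.2% lower. Among the 4 higher ones, Mxd4 averaged 20.6 ± 5.13 CPM in M1 KD (SD, n = 2) and 6.66 ± 0.108 CPM in M1 NS (SD, n = 3; 1.63, SE 0.15, adjusted p = 1.93e-05), and Mxi1 averaged 112 ± 7.22 CPM in M1 KD (SD, n = 2) and 40.01 ± 10.1 CPM in M1 NS (SD, n = 3; 1.49, SE 0.17, adjusted p = 8.10e-05). The others were Mnt (0.67, SE 0.12, adjusted p = 0.00105) and Mxd1 (0.78, SE 0.25, adjusted p = 0.0287). The 1 lower gene was Mga (-0.93, SE 0.21, adjusted p = 0.00575). Mnt, Mxd1 and Mga were named after their values were seen. What Myc and its network contribute to the values of the 35 genes was not tested.

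Within the set described here, the median fall in M1 KD was larger among the genes with long transcripts. Ordered by their longest annotated coding transcript, the 12 shortest genes (1197 to 2613 bases) had a median log2 fold change of -0.37 in M1 KD against M1 NS, with 4 called lower. The 12 in the middle (2702 to 3998 bases) had a median of -0.53, with 8 called lower, and the 11 longest (4120 to 10012 bases) had a median of -0.85, with 7 called lower. This is a description without a test. No such ordering of all tested genes is given here, so whether the pattern is particular to this set was not tested. Utp20, Polr1a, Nop58 and Heatr1 were among the longest, but Rrs1 (2048 bases) fell almost as much as Utp20 (8821 bases), and Wdr12, the longest by annotation, was higher. The longest annotated transcript need not be the one these macrophages make. A smooth trend in exon number, GC content and length was taken out of every library, an alternative added after seeing the data. The median of the set in M1 KD against M1 NS became -0.71 in place of -0.51. That of the cytosolic ribosomal protein genes became 0.40 in place of 0.74, and that of all genes -0.06 in place of 0.00. The trend was taken out over 14236 genes, so genes outside the set had to shift too. These shifts cannot decide whether the length pattern is particular to this set.

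**Figure D5:**
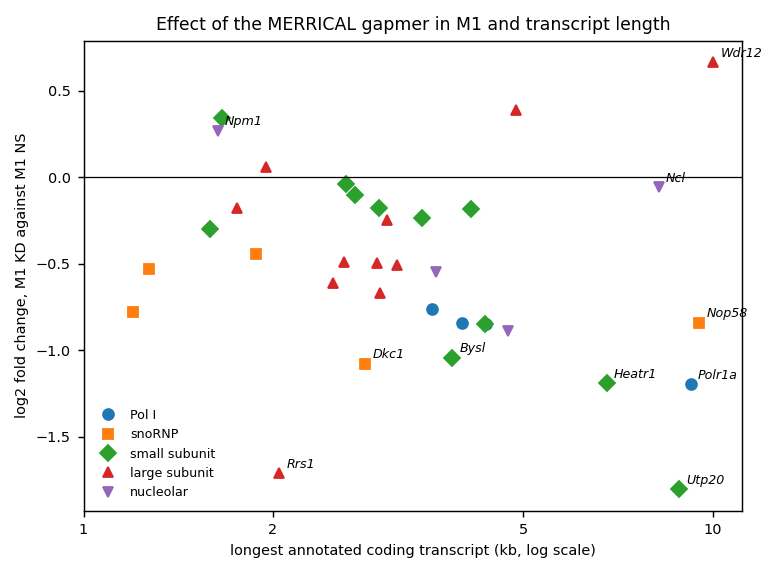
log2 fold change in M1 KD against M1 NS against the length of the longest annotated coding transcript (kilobases, log axis) for the 35 genes, with symbols by role. The 11 genes with the longest transcripts have a median of -0.85 and the 12 with the shortest -0.37, with Wdr12 and Ncl above this pattern and Rrs1 far below it.

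By annotation (GENCODE M21, GRCm38), 6 of the 35 genes (17.1%) carry small nucleolar RNA genes inside them on their own strand, against 1.78% of 12494 tested protein-coding genes. These hosts are Nop56, Nop58, Dkc1, Wdr43, Gnl3 and Ncl, with 19 such genes in all, and in mammals most small nucleolar RNAs are cut from introns of their hosts. Of the 6 hosts, Nop58 and Dkc1 were called lower in M1 KD, and Nop56, Wdr43, Gnl3 and Ncl were not called. For 14 of the 35 genes an exon overlaps a gene on the other strand, among them Polr1a, Heatr1, Bysl, Dkc1 and Wdr12. The sources used here do not give the strand setting of the counting, so reads of such genes and their partners cannot be told apart.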

How the data were processed

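RNA was taken with Trizol and sequenced, per the labels' protocols. The submitters' processing notes name featureCounts (Subread 1.5.2), STAR 2.5.2b, Trimmomatic 0.36 and the build GRCm38. The table deposited by the authors gives raw counts of 42375 named genes in each library. A blank-named entry (29 to 124 counts, at most 0.000305% of a library) was left out. The other deposited table gives 22812 genes as a normalized signal, which was the count over a library-specific constant. It served 1 alternative.

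Counts were analysed in R 4.3.3 with edgeR 4.0.16. filterByExpr (minimum count 10, minimum total 15, 4 groups) kept 15024 genes, scaled with TMM factors. One quasi-likelihood fit of all 11 libraries (robust, a coefficient per group) gave each comparison, since 1 group has 2 libraries. Genes were called where p, adjusted by Benjamini-Hochberg over the 15024 genes, was under 0.05, and SE is that of the log2 fold change. The procedure was tested on simulated data. No 2 libraries of a group agreed within counting error.

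Samples were grouped by title. The genes, the lists and the tests were chosen with earlier results of these data known. Values in every library are given, per role, for the genes with the smallest p in M1 KD against M1 NS (2), in M1 NS against M0 NS (1) and in M0 KD against M0 NS (1), for the 6 with the smallest p in the difference, and for the extremes of each comparison. From each other list the 2 called genes of smallest p were named, and Myc.

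Alternatives were RLE, upper-quartile or no scaling factors, no filter or a minimum count of 30, the robust option off, DESeq2 1.42.0, voom and trend of limma 3.58.1 (trend on log2 of the normalized signal plus 1), a block for the label number, fits of the compared groups alone, each library left out, and, added after seeing the data, a length, GC and exon trend removed. Positions and lengths are from GENCODE M21, which the authors may not have used.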

Additional observations from a re-analysis of the deposited data

Results flagged for a closer look

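The log2 fold change of KD against NS differed between the M1 and the M0 state for 17 of the 35 genes by the interaction test of edgeR (adjusted p under 0.05 over all genes). The value given is the M1 log2 fold change minus the M0 one, negative where the gene was lower in M1 KD relative to its M1 NS level than in M0. Among RNA polymerase I genes it was -1.47 for Polr1a, -0.95 for Rrn3, -0.81 for Mybbp1a and -0.72 for Polr1b. In snoRNP genes it was -1.51 for Dkc1 and -1.38 for Nop58. The small subunit genes gave -2.15 for Utp20, -1.40 for Heatr1, -1.05 for Rrp12, -0.89 for Bysl and -0.58 for Wdr43. The large subunit genes gave -1.73 for Rrs1, -0.74 for Ebna1bp2, -0.67 for Ftsj3 and -0.60 for Nop2, and the nucleolar proteins -1.23 for Ddx21 and -0.83 for Nolc1. The 8 genes other than the 9 with a call under every alternative (Polr1b, Wdr43, Bysl, Rrp12, Nop2, Ebna1bp2, Ftsj3 and Nolc1) lost it under at least 1 of the 21 alternatives. Groups of 2 or 3 libraries are too small for a test of single outlying libraries.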

How the results depend on the processing

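In M1 KD against M1 NS, 9 of the 19 lower genes (Polr1a, Rrn3, Mybbp1a, Nop58, Utp20, Heatr1, Bysl, Rrs1 and Ddx21) kept their call under all 22 alternatives. With the compared groups alone 12 were lower, 0 higher and 3074 of all genes called. The median was -0.36 with upper-quartile factors (3 higher) and -0.71 with the trend removed, and library size alone left 0 higher. Leaving out 1 library gave 14 to 20 lower, 0 to 3 higher (3 without M1 NS replicate 4) and 3691 to 5791 of all genes. For M0 KD against M0 NS, all genes called were 385 with no filter, 221 with DESeq2, 1091 with the compared groups alone and 0 to 1 with 1 library left out (1 without M1 NS replicate 4). The members higher were 3 with DESeq2 and 6 with the compared groups alone, and the median with the trend removed was 0.0828. For the difference of effects, 11 were lower with upper-quartile factors and 11 to 18 with 1 library left out (11 without M0 NS replicate 1 or M0 KD replicate 4), and the trend removed gave a median of -0.78 and 1 higher. For M1 NS against M0 NS, the median was 0.27 with upper-quartile factors (13 higher), 0.00116 with library size alone (5 higher, 6 lower) and 0.55 with the trend removed, and 13 to 21 were higher with 1 library left out (13 without M0 NS replicate 1). For M1 KD against M0 KD, the median was -0.81 with library size alone (0 higher, 27 lower) and -0.13 with the trend removed (4 higher), 8 were lower with RLE factors or limma-trend, and 9 to 14 with 1 library left out. Among the 19 genes given by library, and leaving out uncalled values smaller than their SE, signs turned with the trend removed for Nob1 in the difference (-0.10) and in M1 (-0.0195), for Fbl (0.0207) and Heatr1 (-0.0337) in M0, and for Fbl (-0.39), Nop58 (0.0599), Polr1a (0.25) and Wdr12 (0.34) in M1 KD against M0 KD. They turned with library size alone for Nob1 (-0.10), Nop2 (-0.46) and Wdr43 (-0.0278) in M1 KD against M0 KD, and for Ftsj3 (-0.13), Heatr1 (-0.11), Nolc1 (-0.0288), Rrs1 (-0.18) and Utp20 (-0.14) in M1 NS against M0 NS. Of the other 16 genes, 3 that were called also turned: Ncl in M1 KD against M0 KD was -0.39 and became 0.30 (adjusted p = 0.0483) with the trend removed, and Nip7 (-0.0218) and Utp18 (-0.0212) turned in M1 NS against M0 NS with library size alone. Among the same 16, some uncalled values above 0 turned and were called lower with library size alone. In M1 NS against M0 NS this held for Pes1 (-0.29, adjusted p = 0.041). In M1 KD against M0 KD it held for Utp15 (-0.36, adjusted p = 0.0289), Utp18 (-0.44, adjusted p = 0.0304) and Nip7 (-0.34, adjusted p = 0.0461). The causes were not tested. Deviations of same-numbered libraries correlated at -0.115 to 0.135, and those of libraries with other numbers at -0.142 to 0.173. With 3 libraries a group, these values cannot decide whether the label numbers pair the libraries. As a replicate block over 9 libraries the label numbers gave 0 calls in M0 and 17 higher members in M1 NS against M0 NS, in place of 20, and M1 KD has no shared number. With 2 libraries of M1 KD, its spread is estimated mostly from the other groups.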
